A study of Mus musculus with 6 samples.

Results

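Skeletal muscle of mice taken 24 h after the end of electrical pacing was compared here with muscle of sham-operated mice, across every gene that the array named by exactly 1 symbol. The paced mice carried an implanted pacer and were stimulated for 3 h. The sham mice carried an implanted pacer that stayed inactive, and were sampled only at a time equivalent to 0 h after pacing. Each array held the muscle RNA in channel 1 and a common reference RNA, called Pre, from control muscle in channel 2. The members were the genes with at least 1 probe measured, meaning neither empty nor zero, on both arrays. This left 3606 of the 3939 genes named by 1 symbol on the array, over 5790 probes. The strain, sex and age of the mice, the muscle sampled and the number of mice behind each RNA were not stated.

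Values are log2 ratios to Pre, and a difference is the log2 ratio at 24 h minus that in sham, so a difference of 1 is a doubling. Each group had 1 array. No difference below therefore has a replicate check or a p-value, and calls are by size only, at 2-fold or more. The spread between probes of a gene is given as the probe standard deviation (SD) over the number of probes. It measures the array and not the animals, and its median over the 975 genes with 2 or more probes was 0.35 log2 units. Directions take the ratio as muscle over Pre, which is the likely reading of the labels because the dyes are not stated. Sham muscle was taken 24 h earlier relative to pacing, so recovery from surgery and elapsed time cannot be told apart from pacing. The arrays give ratios without signals, so the tissue label could not be checked by level. All 12 myofibre markers, among them Ckm, Acta1 and Ttn, were measured, with a median difference of -0.05 and a range from -0.54 to 0.57.

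A bout of contraction is known to leave muscle in a changed state well after metabolite levels have recovered. Chaperones, which hold and refold proteins, and the ubiquitin and autophagy systems, which remove them, are part of the usual repair response of fibres. Genes of fuel use and of the sarcomere are also adjusted over hours to days after exercise. Fewer cells of a type and less RNA per cell cannot be told apart in whole muscle.

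At 24 h, 111 genes (3.08% of those measured) were at least 2-fold higher than sham and 104 (2.88%) at least 2-fold lower, together 5.96%. The pattern against Pre was less even, with 135 genes (3.74%) at least 2-fold higher and 56 (1.55%) lower. A gene that stood apart from sham could do so because the sham array itself stood away from Pre. Genes were therefore followed that lay 2-fold or more from each reference in a shared direction. There were 42 such genes on the higher side (1.16%) and 30 on the lower side (0.832%). Both conditions use the same 24 h value, so an error in it enters both. Of these 72 genes, 52 had 1 probe measured on both arrays and 20 had several. With both arrays scaled to the same spread the higher count was 72, a change of more than 1.5 times, while the lower count was 39.

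**Figure D1:**
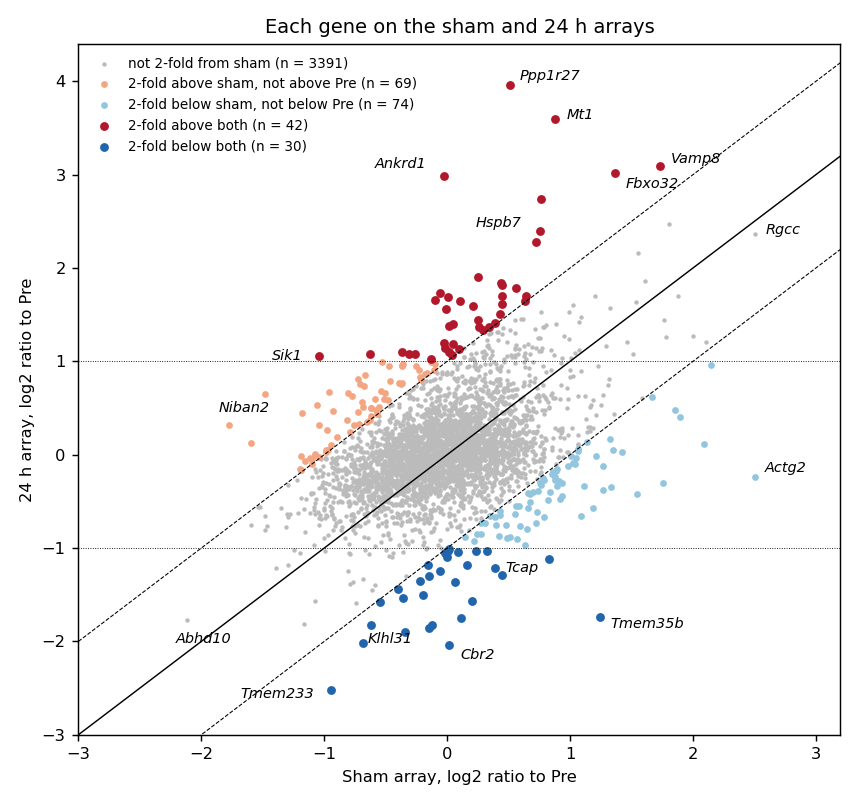
Log2 ratio to Pre of each of 3606 genes on the sham array (horizontal axis) and the 24 h array (vertical axis), with the solid line marking equal values, dashed lines a 2-fold difference from sham and dotted lines a 2-fold difference from Pre. Dark red points are the 42 genes above both and dark blue points the 30 below both, while Actg2 at lower right is far below sham but near Pre.

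The largest difference on the higher side was that of Ppp1r27, a regulatory subunit of protein phosphatase 1 that is also known to bind the membrane repair protein dysferlin. Its log2 ratio to Pre was 0.51 in sham and 3.96 at 24 h, which made it 10.9-fold higher than sham on 1 measured probe. If exact zeros are counted as values its difference is 1.28 instead of 3.44, below that of Ankrd1 at 3.01. On the 0, 1 and 8 h arrays it stood at 0.43, 0.25 and 1.62, and the 3 h array had no value. It was therefore close to its sham value on the 0 h and 1 h arrays and higher on the 8 h array.

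Several other muscle structure and signalling genes stood high with it. Ankrd1, an ankyrin repeat protein that shuttles between sarcomere and nucleus, was at -0.03 in sham and 2.99 at 24 h, 8.11-fold higher, but its 3 probes disagreed (probe SD 2.29). Their differences from sham were 4.57, 4.10 and 0.38, so 2 of the 3 probes were far above sham. By the median over probes its difference was 4.10, above that of Ppp1r27. Myl12b, a regulatory light chain of non-muscle myosin, was 3.16-fold higher, with differences of 2.91, 2.70 and 2.07 on 3 probes and of 0.62 and -0.00 on the others (5 probes, probe SD 1.29). With zeros as values its difference is 0.96. Alpk2, an alpha-kinase known from heart, stood at -0.01 in sham and 1.56 at 24 h, a difference of 1.57 that is 0.77 with zeros as values. Dusp13, a dual-specificity phosphatase expressed in muscle, was 2.23-fold higher (3 probes, probe SD 0.49). The list of 14 stretch and load responsive genes as a whole did not follow Ankrd1. Its median difference was -0.05, with 6 members above sham, and Csrp3, a Z-disc sensor of stretch, stood at 0.56 while Ccn2, a matrix-associated growth factor, stood at -0.25. Over all genes the median difference was 0.09, with 57.9% of genes above sham. Against Pre, 1842 of the 3606 genes were above and 1764 below at 24 h, with a median of 0.01.

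**Figure D2:**
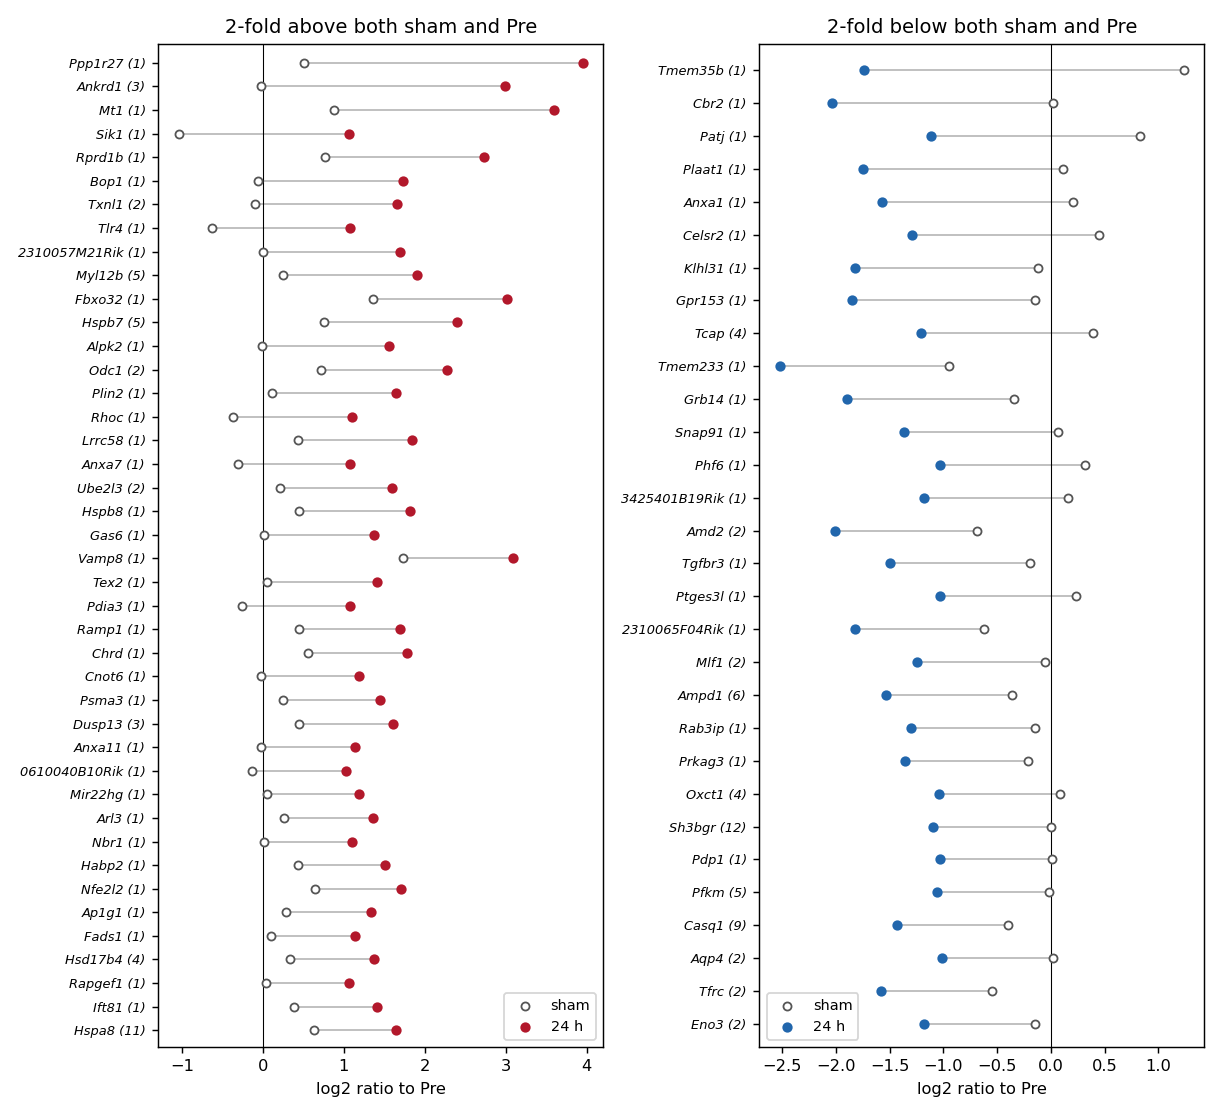
Log2 ratio to Pre in sham (open circles) and at 24 h (filled circles) for the 42 genes at least 2-fold above both sham and Pre (left) and the 30 at least 2-fold below both (right), with the number of probes after each name. Genes are ordered by their difference from sham, from Ppp1r27 at 3.44 and Tmem35b at -2.98 downward in size.

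Chaperone genes were higher in part. Over 46 chaperone genes from 6 lists the median difference was 0.40, with 32 above sham. At least 2-fold higher were 4, and 1 was at least 2-fold lower (against 3.08% and 2.88% of all genes). The compartments differed in their medians. The 4 small heat shock protein genes measured had a median of 1.03, the 6 chaperones of the endoplasmic reticulum 0.75, and the 14 genes of the Hsp70 system 0.43. The 6 mitochondrial chaperones were at 0.11 and the 10 genes of the cytosolic chaperonin CCT list at 0.00. The 6 genes of Hsp90 and its partners were at 0.12, with 3 above sham and 4 below Pre. On genes with 2 or more probes alone the medians were 0.69 for small heat shock proteins, 0.81 for the endoplasmic reticulum, 0.05 for Hsp70 and 0.68 for Hsp90, so the order of the lists was not the same.

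Among the small heat shock proteins, which hold unfolding proteins in a soluble state, Hspb7 stood at 0.76 in sham and 2.40 at 24 h. It was 3.12-fold higher, with 4 of its 5 probes between 1.76 and 2.28 above sham and the other at 0.08 (probe SD 0.90). With zeros as values its difference is 1.23 instead of 1.64. Hspb8, a partner of Bag3 in chaperone-assisted autophagy, was at 0.44 in sham and 1.82 at 24 h on 1 probe. Cryab, the alpha-B crystallin of the Z-disc, had a difference of 0.69 with a larger probe SD of 1.21 over 3 probes. Hspb1, the most widely expressed member of the family, stood at -0.00 (3 probes, probe SD 0.70). With zeros left out, the 4 members thus ranged from no difference to more than 3-fold.

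In the Hsp70 system, Hspa8, the constitutive Hsp70, stood at 0.63 in sham and 1.65 at 24 h. It was 2.02-fold higher with 7 of 11 probes at least 2-fold above sham and a range from 0.48 to 1.41 (probe SD 0.25), which makes it the member with the most probes among the 42 higher genes. Its co-chaperones of the J-domain family Dnajb1, Dnaja2 and Dnaja1 had differences of 0.82, 0.78 and 0.52 on 1 probe each. Hsph1, a nucleotide exchange factor, stood at 0.66 (2 probes, probe SD 0.81) and Bag3 at 0.57 (6 probes, probe SD 0.59). Bag1, another exchange factor, stood at -0.64 on 2 probes. In all, 10 of the 14 members were above sham.

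All 6 measured chaperones of the endoplasmic reticulum were above sham. Pdia3, a disulfide isomerase that folds glycoproteins, stood at -0.26 in sham and 1.08 at 24 h and was 2.53-fold higher. The others, which were under 2-fold, were Hsp90b1 at 0.87 (3 probes, probe SD 0.30), Hspa5, the lumenal Hsp70, at 0.75 (3 probes, probe SD 0.69), the lectin chaperones Calr at 0.75 and Canx at 0.63, and Dnajb9 at 0.59. Ratios to Pre of these 6 genes at 24 h were all positive, with a median of 0.82, while in sham their median was -0.03. The cytosolic Hsp90aa1 stood at 0.95 (5 probes, probe SD 0.77). In the same list Fkbp5, a co-chaperone of steroid receptors and a known glucocorticoid target, was 2-fold lower than sham, at -1.12, and at -0.85 against Pre. Smyd1, a myosin chaperone partner and methyltransferase, stood at -0.62 (3 probes).

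The windows of 250 bases before the gene starts are shown for 6 genes because several chaperone genes stood above sham while members of 1 family, the small heat shock proteins, differed among themselves. Ankrd1 is not a chaperone and is shown beside them. The 6 genes were picked, and where a gene had several windows the one with the most matches is shown. They therefore do not stand for the share of windows with a match. The heat shock factor binds inverted repeats of GAA, and the letters TTCNNGAA and GAANNTTC, each its own reverse complement, were searched on both strands, where 1 match can overlap the other. They occur in 7.17% and 6.69% of all windows. The capitals mark each match. Sequences are from RefSeq (GRCm38.p6), written from far to near the gene start.
Hspb7, chr4:141420529-141420778, + strand: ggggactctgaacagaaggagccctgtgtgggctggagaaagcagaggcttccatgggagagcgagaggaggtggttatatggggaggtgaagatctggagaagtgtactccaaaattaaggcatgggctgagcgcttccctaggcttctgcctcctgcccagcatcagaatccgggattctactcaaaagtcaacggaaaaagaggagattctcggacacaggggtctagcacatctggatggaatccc
Hspb8, chr5:116422865-116423114, - strand: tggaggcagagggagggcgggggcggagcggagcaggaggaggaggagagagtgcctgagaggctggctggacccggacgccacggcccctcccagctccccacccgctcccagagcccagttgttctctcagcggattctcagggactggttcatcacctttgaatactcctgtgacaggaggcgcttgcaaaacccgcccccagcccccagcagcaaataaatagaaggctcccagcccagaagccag
Hspb1, chr5:135887669-135887918, + strand: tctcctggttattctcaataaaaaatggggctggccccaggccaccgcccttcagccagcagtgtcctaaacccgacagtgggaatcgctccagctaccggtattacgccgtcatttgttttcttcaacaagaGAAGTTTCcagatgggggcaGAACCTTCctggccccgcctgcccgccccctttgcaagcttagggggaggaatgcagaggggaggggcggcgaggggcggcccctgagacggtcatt
Hsph1, chr5:149636337-149636586, - strand: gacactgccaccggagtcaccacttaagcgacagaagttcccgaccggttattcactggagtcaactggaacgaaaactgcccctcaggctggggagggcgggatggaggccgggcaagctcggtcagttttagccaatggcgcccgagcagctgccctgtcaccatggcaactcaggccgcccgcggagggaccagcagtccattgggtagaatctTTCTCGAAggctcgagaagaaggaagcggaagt
Dnaja1, chr4:40722218-40722467, + strand: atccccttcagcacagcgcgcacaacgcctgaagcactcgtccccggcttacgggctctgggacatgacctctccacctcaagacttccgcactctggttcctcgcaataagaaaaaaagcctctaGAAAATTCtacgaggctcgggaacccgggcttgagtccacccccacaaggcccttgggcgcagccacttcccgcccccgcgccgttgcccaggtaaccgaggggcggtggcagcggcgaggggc
Ankrd1, chr19:36119845-36120094, - strand: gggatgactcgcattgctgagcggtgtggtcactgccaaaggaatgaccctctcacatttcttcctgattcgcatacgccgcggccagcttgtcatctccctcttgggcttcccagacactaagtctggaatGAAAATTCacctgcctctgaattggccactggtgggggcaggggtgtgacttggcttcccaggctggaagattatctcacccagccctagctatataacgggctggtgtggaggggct
Hspb7 and Hspb8, both at least 2-fold higher than sham, held no match in this window, and Hspb1, which stood at -0.00, held 2, starting 117 and 97 bases before the gene start. Hsph1, Dnaja1 and Ankrd1 held 1 each. Of the 46 chaperone genes 39 were in the sequence table, with 47 windows, and 12 of those windows (25.5%) held at least 1 match, against 12.8% of all 32851 windows. The 10 chaperone genes with a match had a median difference of 0.40 and those without had 0.50. Of the genes 2-fold above both sham and Pre, 6 of the 32 with a sequence held a match, and of those below both, 3 of 22. These letter matches are descriptions of the sequence, and no binding was measured.

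Some genes of protein removal stood high. Fbxo32, the muscle ubiquitin ligase atrogin-1, stood at 1.36 in sham and 3.01 at 24 h, so it was already well above Pre in unpaced operated muscle. On the 0, 1, 3 and 8 h arrays its ratios were 2.94, 1.02, 1.05 and 2.29. Ube2l3, a ubiquitin-conjugating enzyme, was 2.60-fold higher, with both probes past 2-fold (probe SD 0.23), but at 0.71 log2 units with zeros as values. Psma3, a subunit of the proteasome core, was 2.29-fold higher, and Nbr1, an autophagy receptor for ubiquitinated cargo, 2.13-fold. Nbr1 stood between -0.19 and 0.46 against Pre on the 4 earlier paced arrays and at 1.10 at 24 h.

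Over the 20 atrophy ligase and ubiquitin genes the median difference was 0.41, with 16 above sham, 1 at least 2-fold higher (against 3.08% of all genes) and 0 lower. Nploc4, a cofactor of the segregase Vcp, stood at 0.85 and Skp1, a ligase scaffold subunit, at 0.81. Vcp itself stood at 0.46 (2 probes, probe SD 0.09) and at 1.09 against Pre. Trim63, the other main atrophy ligase, stood at 0.25 with probes that disagreed (2 probes, probe SD 1.19), since it was at 1.61 in sham and 1.86 at 24 h. Among 26 autophagy and lysosome genes, 18 were above sham and 0 past 2-fold (against 5.96% of all genes), and the median was 0.19. Ctsb, a lysosomal protease, and Cd63, a lysosomal membrane protein, were the highest of these at 0.84 and 0.76. The proteasome list of 26 genes was near all genes, with a median of 0.15, with Psma3 at 1.19 and Psmc5, an ATPase of the cap, at -1.39.

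Metal and oxidant defence genes included some of the largest differences. Mt1, a metallothionein that binds zinc and copper, was at 0.88 in sham and 3.59 at 24 h on 1 probe, 6.55-fold higher. Its course was not even, since its ratios on the 0, 1, 3 and 8 h arrays were 3.13, 0.47, 0.88 and 3.16. Metallothionein spots may bind the near-identical family members. Txnl1, a thioredoxin-like protein associated with the proteasome, was 3.37-fold higher, with differences of 1.93 and 1.58 on its 2 probes. Nfe2l2, the transcription factor NRF2 of the antioxidant response, stood at 0.64 in sham and 1.71 at 24 h. Of the 22 genes in this list 14 were above sham, with a median of 0.14. Known targets of NRF2 stood on both sides of sham. Gstm2 stood at 0.84 and Prdx1 at 0.57 (2 probes, probe SD 0.22), but Nqo1 stood at 0.13, Txnrd1 at 0.05 and Hmox1 at -0.76. Tfrc, the transferrin receptor for iron uptake, was on the lower side, at -0.55 in sham and -1.58 at 24 h (2 probes, probe SD 0.21).

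Polyamine genes stood on both sides. Of 11 genes in the polyamine and amino acid stress list 6 were above sham, with a median of 0.11 that was negative under 2 other settings. Odc1, which makes putrescine in the opening step of polyamine synthesis, was at 0.72 in sham and 2.28 at 24 h, with differences of 2.12 and 1.00 on 2 probes. Amd2, the decarboxylase that feeds the next steps and is nearly identical in sequence to Amd1, went the other way, from -0.69 in sham to -2.01 at 24 h, with both probes past 2-fold (probe SD 0.35). Of genes that act on RNA and ribosome assembly, Rprd1b, which binds the tail of RNA polymerase II, was 3.91-fold higher. Bop1, needed for assembly of the large ribosomal subunit, was 3.46-fold higher. The sham value of its probe was shared with another probe of the same run of probes and may be a fill-in. Whether the probes of a run were printed together was not stated. The ratio of Bop1 to Pre at 24 h, 1.74, does not depend on the sham value. On the 1 h, 3 h and 8 h arrays this ratio was between 0.21 and 0.33. Cnot6, a deadenylase subunit, was 2.33-fold higher, and Mir22hg, the host transcript of a microRNA, 2.21-fold.

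Of 43 translation factor and tRNA synthetase genes, 36 were above sham, and the median difference was 0.32. Of these, 4 were at least 2-fold higher than sham (against 3.08% of all genes) and 0 lower, but none of the 4 was 2-fold above Pre. They were Pabpc1, the poly(A) binding protein, at 1.52, Eif5a, the substrate of the polyamine-dependent hypusine modification, at 1.15, the valyl synthetase gene Vars at 1.12 and the repressor Eif4ebp3 at 1.08. Against Pre they stood at 0.85, 0.76, 0.99 and 0.01. Cytosolic ribosomal proteins, with 64 genes, had 47 above sham (median 0.24) and 56 above Pre (median 0.54). Single members cannot be trusted among these because cDNA spots may bind relatives. The muscle-specific paralogue Rpl3l, at -0.68 (2 probes), and the general form Rpl3, at 0.83 (2 probes), stood on opposite sides. In nuclear and nucleolar RNA processing 24 of 35 genes were above sham, and the median was 0.12.

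Membrane, vesicle and lipid genes were scattered among the higher genes beyond the first 10. Vamp8, a fusion protein of late endosomes and autophagosomes, stood high in both, at 1.73 in sham and 3.09 at 24 h. Tex2, a lipid transfer protein of the endoplasmic reticulum, was 2.56-fold higher and was between 0.09 and 0.29 against Pre on the earlier paced arrays. The annexins Anxa7 and Anxa11, which bind phospholipid with calcium, were 2.62-fold and 2.23-fold higher. Anxa1, a further annexin known for restraining inflammation, went the other way, from 0.20 in sham to -1.57 at 24 h. Arl3 and Ift81, which serve transport in cilia, were 2.16-fold and 2.03-fold higher, and the clathrin adaptor subunit Ap1g1 2.06-fold. In the whole trafficking list 49 of 87 genes were above sham, 5 by at least 2-fold, and 3 were 2-fold below (against 3.08% and 2.88% of all genes). The median of 0.14 lay near that of all genes.

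Of lipid genes, Plin2, the coat protein of lipid droplets, was at 0.11 in sham and 1.64 at 24 h, 2.90-fold higher. Hsd17b4, a peroxisomal enzyme of fatty acid oxidation, was 2.04-fold higher with 3 of 4 probes past 2-fold (probe SD 0.30). Fads1, a fatty acid desaturase, was 2.05-fold higher. These genes act outside the mitochondrial pathway. In fatty acid uptake and oxidation, 16 of 24 genes were below sham, 4 by at least 2-fold, and 1 was 2-fold above (against 2.88% and 3.08% of all genes), for a median of -0.32. Against Pre the same list had a median of 0.02, with 14 genes above, and in sham a median of 0.34. The 4 were Etfa at -1.45, Eci2 at -1.23, Mlycd at -1.19 and Cpt1b, the carnitine transferase of muscle mitochondria, at -1.03, each on 1 probe. None was 2-fold below Pre, where they stood at -0.80, -0.01, 0.96 and -0.60. The member above was Acaca, which makes malonyl-CoA, at 1.04 on both probes and 0.42 against Pre.

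Signalling genes on the higher side served several pathways. Sik1, a salt-inducible kinase, was at -1.04 in sham and 1.06 at 24 h, so its difference of 2.10 came in nearly equal parts from both arrays. Tlr4, the innate receptor for bacterial lipopolysaccharide, was 3.26-fold higher, from -0.63 in sham to 1.08, and stood between 0.13 and 0.30 on the measured earlier paced arrays. Few immune cell markers could be set beside it. Of 18 macrophage markers 4 were measured, Ptprc at -0.32, C1qb at -0.12, Lyz2 at 0.05 and Laptm5 at 0.56, while 0 of 8 neutrophil markers and 0 of 10 lymphocyte markers had a value. Gas6, a ligand of receptor kinases that aid removal of dead cells, was 2.57-fold higher. Ramp1, a subunit of the receptor for the nerve peptide CGRP, was 2.38-fold higher, and Chrd, an antagonist of bone morphogenetic proteins, 2.34-fold. Rhoc, a GTPase of the actin skeleton, was 2.76-fold higher, Rapgef1, an activator of Rap GTPases, 2.04-fold, and Habp2, a secreted protease, 2.12-fold. Lrrc58 was 2.64-fold higher, and the uncharacterised 2310057M21Rik and 0610040B10Rik were 3.22-fold and 2.23-fold higher.

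Immediate early and feedback genes, which respond within an hour of stimulation, were near sham apart from Sik1. Of the 18 measured, 13 were above sham, with a median of 0.08 and 1 at least 2-fold higher (against 3.08% of all genes). Jun stood at 0.51 (2 probes, probe SD 0.25), Egr1 at -0.05, Dusp1 at 0.02 and Ier2 at -0.18. Gadd45g was the lowest at -0.81.

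On the lower side, genes of the Z-disc and of kelch proteins included large differences. Tcap, which caps titin at the Z-disc, stood at 0.39 in sham and -1.21 at 24 h, 3.03-fold lower. All 4 of its probes were past 2-fold, at -1.97, -1.58, -1.50 and -1.34. Klhl31, a kelch protein of the sarcomere, was at -0.12 in sham and -1.83 at 24 h. Klhl34 at -1.45 and Klhl41 at -1.35 were lower than sham by 2-fold but stood at -0.67 and -0.62 against Pre. Myoz1, a calcineurin-binding protein of fast-fibre Z-discs, was at -0.96 with close agreement (11 probes, probe SD 0.22), just inside the 2-fold line. The list of 29 Z-disc, titin and kelch genes was divided, with 15 below sham, 14 above and a median of -0.06. On its other side were Cryab at 0.69, Klhl30 at 0.62 and Csrp3 at 0.56. Titin itself, Ttn, stood at 0.35 over 44 probes (probe SD 0.57).

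Calcium handling genes were lower in part. Casq1, the calcium store protein of fast fibres, was 2.05-fold lower, with 6 of 9 probes past 2-fold and a range from -2.36 to 0.42 (probe SD 0.82). Hrc, a calcium-binding protein of the same store, stood at -0.99 (6 probes, probe SD 0.48), Camk2a, a calmodulin-dependent kinase, at -0.83 (4 probes, probe SD 0.33) and Trdn, the anchor between store and release channel, at -0.72 on 2 probes. The release channel Ryr1 was level, at 0.06 (8 probes, probe SD 0.25), and the pump Atp2a1 was above sham at 0.59. Cacna1s, the voltage sensor, was 2-fold above sham at 1.18 on 1 probe, but at -0.02 against Pre. Over the 24 genes the median was -0.05, with 14 below sham, and 19 of 24 were below Pre (against 1764 of all 3606 genes).

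Several lower genes served energy metabolism. Ampd1, the AMP deaminase that drains AMP during heavy work, stood at -0.36 in sham and -1.54 at 24 h, 2.26-fold lower. Of its 6 probes 5 were past 2-fold, between -2.10 and -1.12, and the other stood at 0.64 (probe SD 0.96). Pfkm, the muscle phosphofructokinase, was 2.05-fold lower (5 probes, probe SD 0.46) and Eno3, muscle enolase, 2.04-fold (2 probes, probe SD 0.19). Oxct1, which lets muscle burn ketone bodies, was 2.19-fold lower with 3 of 4 probes past 2-fold (probe SD 0.46). Pdp1, a phosphatase that activates pyruvate dehydrogenase, was 2.06-fold lower on 1 measured probe, at -1.04, but at -0.15 with zeros as values and -0.66 with each array averaged over its own probes. Calls for Pfkm and Eno3 were marginal too, since Eno3 is at -0.98 with zeros as values and Pfkm at -0.98 by the median over probes and -0.99 over each array's own probes. Prkag3, which regulates the AMP-activated kinase in muscle, was 2.20-fold lower than sham on 1 probe. Against Pre it stood at -1.35 at 24 h and at -1.51 at 0 h.

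Of the 17 glycolysis genes 14 were below sham, with a median of -0.47, 3 at least 2-fold lower (against 2.88% of all genes) and 0 higher. Besides Pfkm and Eno3 the third was Pfkfb3, a regulator of phosphofructokinase, at -1.02 but at -0.01 against Pre. Gpd1 stood at -0.96 (2 probes, probe SD 0.67), Ldha at -0.75 (10 probes, probe SD 0.43) and Pgam2 at -0.60 (12 probes, probe SD 0.63). Not all steps were lower. Aldoa stood at 0.01 over 46 probes (probe SD 0.29), Gapdh at 0.12 (5 probes, probe SD 0.14) and Pkm at -0.12 (9 probes, probe SD 0.33). Ldhb, the heart-type lactate dehydrogenase, was above at 0.78, with probes that disagreed widely (6 probes, probe SD 2.58). Slc16a3, the exporter of lactate from fast fibres, was the lowest of 48 solute carriers at -1.39 and stood at -0.88 against Pre.

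Glycogen genes pointed the same way less evenly, with 7 of 11 below sham and a median of -0.26. Phkg1, the catalytic subunit of muscle phosphorylase kinase, was lowest at -0.95 (4 probes, probe SD 0.57). Ppp1r3c, which directs phosphatase 1 to glycogen, stood at -0.90 on 2 probes that agreed (probe SD 0.00) yet at 1.20 against Pre, since sham was higher still. Stbd1, a glycogen-binding protein, was above sham at 0.72.

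The mitochondrial lists lay below sham but level with Pre. Of 64 respiratory chain and ATP synthase genes, 52 were below sham and 0 past 2-fold in either direction (against 5.96% of all genes). The medians were -0.27 from sham and 0.01 from Pre. Of 20 TCA cycle genes, 16 were below sham and 1, Suclg1 at -1.19, was past 2-fold (against 2.88% of all genes). Their medians were -0.25 from sham and 0.01 from Pre. In both lists the sham array stood above Pre, with medians of 0.30 and 0.28. The position of these lists at 24 h thus depended on which unpaced RNA served as the baseline, whereas glycolysis had a median of -0.25 against Pre and the endoplasmic reticulum chaperones 0.82.

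**Figure D3:**
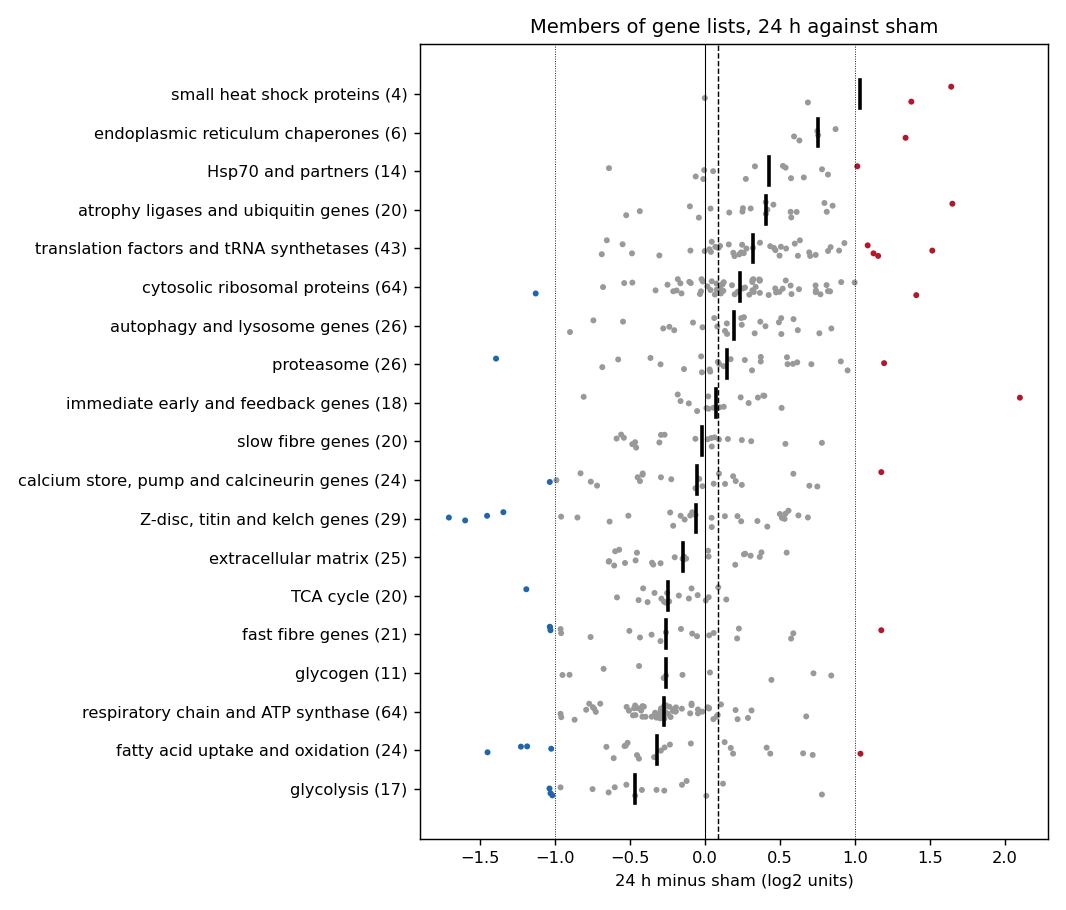
Difference between 24 h and sham in log2 units for the measured members of 19 gene lists, with the number of members after each name, black bars for list medians, dotted lines at 2-fold and a dashed line at the median of all genes, 0.09. Red points are members 2-fold or more above sham and blue points those 2-fold or more below. Small heat shock proteins are at the top with a median of 1.03 and glycolysis at the bottom with -0.47.

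Both fibre type lists lay mostly below Pre, with 16 members of each below it and medians of -0.28 for fast and -0.30 for slow genes. Of the 21 fast genes 14 were below sham, 3 by at least 2-fold, and 1 was 2-fold above (against 2.88% and 3.08% of all genes), for a median of -0.26. The lowest and highest fast genes, Casq1 at -1.04 and Cacna1s at 1.18, also ended the calcium list, so the lists share members. The slow list of 20 genes was split 10 and 10 around sham, with a median of -0.02. Past 2-fold in it were 0 (against 5.96% of all genes). By the median over probes the 2 medians were -0.16 and -0.17, and a difference between the lists was not tested. Myosin and troponin genes of fast fibres showed small differences, with Myh4 at 0.57 (34 probes, probe SD 0.55), Tnnt3 at -0.05 (6 probes, probe SD 0.13) and Tnnc2 at -0.30 (29 probes, probe SD 0.39). Myosin probes may bind several family members.

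The remaining genes on the lower side had varied roles. Aqp4, the water channel of fast fibres, was 2.05-fold lower (2 probes, probe SD 0.19), and Sh3bgr, a small protein abundant in striated muscle, 2.14-fold, with 8 of 12 probes past 2-fold and the rest between that line and -0.63 (probe SD 0.33). Mlf1, a nuclear and cytoplasmic adaptor, stood near Pre on the earlier arrays, between -0.06 and 0.08, and at -1.25 at 24 h with close probes (2 probes, probe SD 0.08). Cbr2, a carbonyl reductase, was 4.15-fold lower on 1 probe, from 0.02 in sham to -2.04, after ratios between -0.40 and 0.07 on the measured earlier paced arrays. Tmem35b, a membrane protein, had the lowest difference of all genes, -2.98, from 1.24 in sham to -1.74 at 24 h, on 1 probe that was not measured at 0 h and 3 h.

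Some of the others encode receptors, adaptors and junction proteins. The insulin and growth factor signalling list was even, with 10 of 19 above sham and a median of 0.06. At least 2-fold higher was 1 and lower 1 (against 3.08% and 2.88% of all genes). Grb14, an inhibitor of the insulin receptor, was 2.94-fold lower, Tgfbr3, the co-receptor betaglycan, 2.46-fold, Gpr153, an orphan receptor, 3.25-fold and Celsr2, an adhesion cadherin, 3.33-fold. Patj, a polarity scaffold of cell junctions, was 3.85-fold lower, of which part came from a sham value of 0.83. Snap91, a clathrin assembly protein, was 2.69-fold lower and Rab3ip, an activator of Rab8, 2.23-fold. Plaat1, a phospholipid-modifying enzyme, was 3.65-fold lower, Tmem233 2.99-fold, the chromatin factor Phf6 2.55-fold and Ptges3l 2.40-fold. The uncharacterised 3425401B19Rik and 2310065F04Rik were 2.54-fold and 2.30-fold lower. All of these receptors, adaptors and other genes had 1 probe each that was measured on both arrays.

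Matrix genes tended to be below both references without 2-fold differences from sham. Of 25 matrix genes, 16 were below sham and 21 below Pre, and the median difference was -0.15. Past 2-fold from sham were 0 (against 5.96% of all genes). Against Pre the list had a median of -0.26 at 24 h and -0.27 in sham, so it lay below Pre in unpaced operated muscle too. Of 6 fibroblast markers, from a list made up mostly of matrix genes, 5 were below sham. Their median difference was -0.59, with a range from -0.91 for Pdgfra to 0.02 for Col1a2. Against Pre their median was 0.14 in sham and -0.26 at 24 h. The part of fibroblast content in these values was not tested. Of 6 endothelial markers 4 were below sham, for a median of -0.07, and of 6 smooth muscle and pericyte markers 3 were, for a median of -0.23. Both measured adipocyte markers were below sham, with a median of -0.78. Against Pre their median was 1.04 in sham and 0.25 at 24 h, so it was not below Pre. For satellite cells 2 markers were measured and for red cells 3, with medians of 0.25 and -0.01, and for Schwann cells and nerve 0 of 7.

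**Figure D4:**
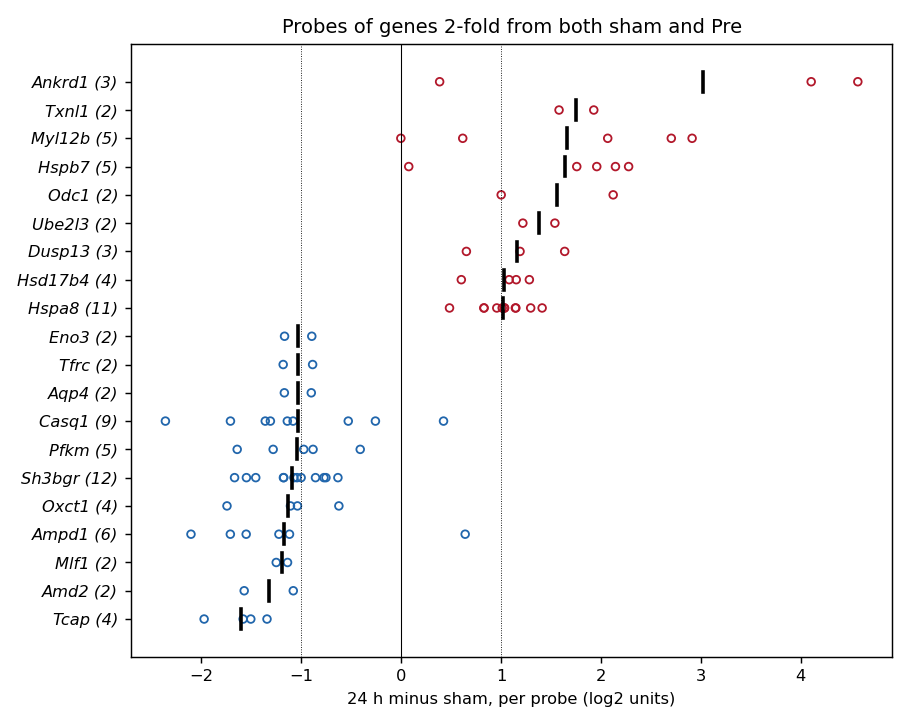
Difference between 24 h and sham for every probe (open circles) of the 20 genes that had several probes and were 2-fold from both sham and Pre, with black bars at the gene means and dotted lines at 2-fold. All probes lie past 2-fold for Txnl1, Odc1, Ube2l3, Mlf1, Amd2 and Tcap, while Ankrd1, Myl12b, Hspb7, Casq1 and Ampd1 each have at least 1 probe near or across 0.

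Agreement between probes differed between genes. Of genes with 1 probe 6.96% were 2-fold from sham, against 3.28% of genes with several. Among the 975 genes with several probes, 9 had every probe past 2-fold from sham in the same direction, and 6 of these were also 2-fold from Pre. Those 6 were Txnl1, Odc1 and Ube2l3 above and Tcap, Amd2 and Mlf1 below. If exact zeros are counted as values, Ube2l3, Tcap and Mlf1 no longer lie 2-fold from both references, at 0.71, -1.50 and -1.10 from sham. The other 3 were Acaca at 1.04, Pum3, an RNA-binding protein of the nucleolus, at 1.20 and Tmem134 at -1.23, which stood at 0.42, 0.52 and -0.34 against Pre.

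The genes that were 2-fold from both references at 24 h had not all been so earlier. The 42 higher genes had a median ratio to Pre of 0.23 in sham. On the 0, 1, 3, 8 and 24 h arrays it was 0.63, 0.32, 0.75, 0.73 and 1.57. Of those measured at 0, 1, 3 and 8 h, 9 of 39, 4 of 41, 15 of 40 and 15 of 42 were at least 2-fold above Pre. For the 30 lower genes the median was -0.01 in sham and, in the same order of arrays, -0.54, -0.27, -0.45, -0.62 and -1.36. In that order up to 8 h, 9 of 28, 0 of 30, 6 of 28 and 12 of 30 were at least 2-fold below Pre. The share of all genes past 2-fold on the earlier arrays was not counted. The genes were picked on their 24 h value, so a larger median at 24 h follows from the choice, and all arrays share Pre. The earlier values are given as a description.

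**Figure D5:**
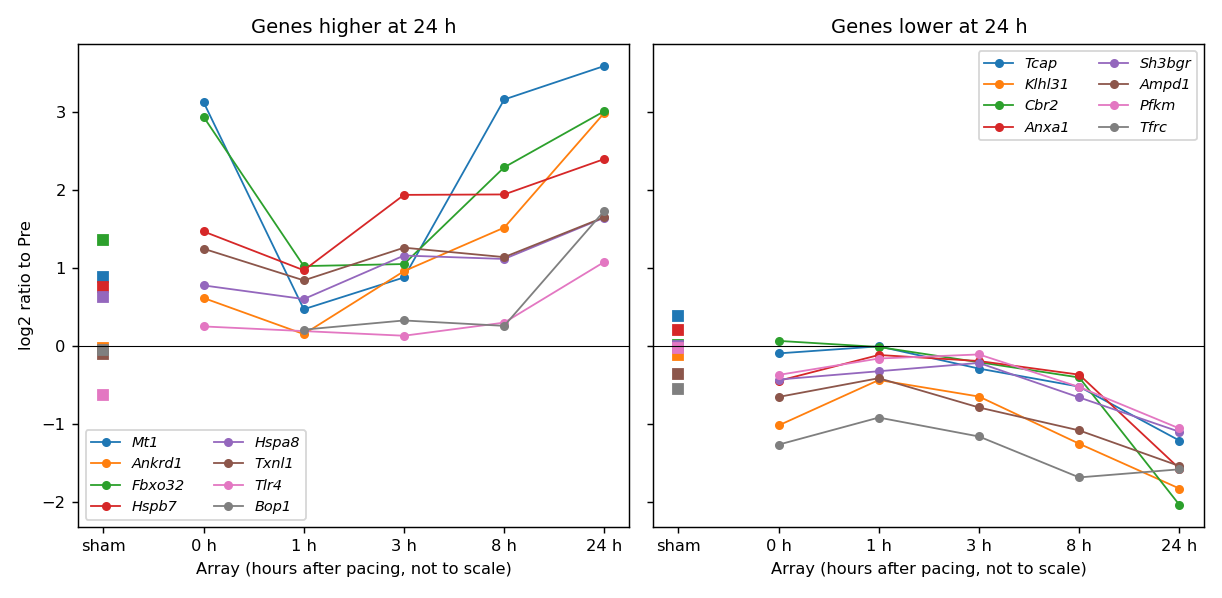
Log2 ratio to Pre on each of the 6 arrays for 8 genes higher (left) and 8 genes lower (right) at 24 h, with squares for sham, circles joined by lines for paced muscle, and 1 array per point. Mt1 and Fbxo32 are high at 0 h and again at 8 h and 24 h, while Bop1 and Tlr4 on the left and Cbr2 and Anxa1 on the right lie near 0 or under 2-fold until 24 h.

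A larger set of genes stood apart from sham but not from Pre. There were 69 such genes on the higher side, and 17 of these were 2-fold below Pre in sham. On the lower side there were 74, of which 25 were 2-fold above Pre in sham. Actg2, a smooth muscle actin, was the clearest, at 2.51 in sham and -0.24 at 24 h. Ift20 went from 2.09 to 0.12 and Sertad1, a transcriptional regulator, from 1.75 to -0.31. Others were Ints4, an Integrator subunit, at 1.90 and 0.40, and Ddr1, a collagen receptor, at 1.09 and -0.66. Sdc1, Ptpdc1 and Pgm5 were also in the lowest 10, but their sham values were shared within a run of probes and may be fill-ins. On the higher side Niban2 went from -1.77 in sham to 0.32, Fam120b from -1.48 to 0.65, the histone gene H2bc4 from -1.60 to 0.12 and Axin1, a scaffold of Wnt signalling, from -1.18 to 0.44. Lpgat1, an acyltransferase, was at -0.53 and 1.00, and its 3 probes differed (probe SD 0.97).

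A further 93 genes were 2-fold above Pre at 24 h without being 2-fold above sham, and 26 were below Pre in the same way. Of genes 2-fold from Pre on both arrays and within 0.5 of each other, 15 were above and 6 below. These were also 2-fold from Pre in operated muscle that was never stimulated, and their nearness to sham follows from the choice. Differences from sham among them reached 0.50 for Stxbp3 and -0.49 for Unc119b. Rgcc, a cell cycle regulator, was at 2.50 in sham and 2.37 at 24 h. Pdk4, the kinase that blocks pyruvate oxidation, was at 1.88 and 1.70 (difference -0.18, 3 probes, probe SD 0.66). Sel1l, of the degradation pathway of the endoplasmic reticulum, was at 1.76 and 1.45, the RNA helicase Ddx21 at 1.54 and 1.63, the lysosomal protease Ctsl at 1.33 and 1.57 and the heme-responsive repressor Bach1 at 1.47 and 1.21. On the lower side Abhd10 was at -2.12 and -1.77 and Sgsm3 at -1.39 and -1.21.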

How the data were processed

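Total RNA of mouse skeletal muscle was measured on 2-channel spotted arrays. The deposited table holds 1 value per probe and array for 13872 probes. The authors deposited ratios of muscle to Pre made from both channels, taken as log10 from the numbers because the labels state neither scale nor dyes; how they were scanned, corrected for background and normalized is not given in the sources used here. On the sham array 201 values were zero, 485 cells were empty and 154 values were shared with another probe of the same run of 289 probes; on the 24 h array 1699 were zero. Zeros and empty cells were treated as not measured and shared values were kept. The ratios were put on the log2 scale and centred per array on the median of the 11896 probes measured on both arrays. A gene's value is the mean over its probes with exactly 1 symbol (6609 probes, 6599 of them found by Entrez ID in the GRCm38.p6 table). With 1 array per group no test was made. Calculations used Python 3.11.15 with pandas 2.3.3 and numpy 2.4.6, and were tested on simulated arrays. Named genes were those 2-fold from both sham and Pre and members at the ends of gene lists. Up to 10 genes each way that were 2-fold from sham alone or equally far from Pre on both arrays were also named. Other list members, among them Ryr1, Ttn, Pkm, Nqo1, Txnrd1 and Dusp1, were named as examples outside these rules. They therefore do not stand for their lists. The members, lists and thresholds were chosen with earlier results of these data known. A total of 9 alternative settings was tried.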

Additional observations from a re-analysis of the deposited data

Results flagged for a closer look

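Probes outside the named set also stood apart at 24 h. Of 6106 probes measured on both arrays that had no symbol or several, 78 were 2-fold higher than both sham and Pre and 64 were 2-fold lower. Together these were 2.33% of such probes, and differences from sham reached 3.85 on the higher side and -2.97 on the lower. Their genes are not named here, and their part in the gene groups was not tested.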

How the results depend on the processing

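Under 9 alternative settings none of the 72 genes that were 2-fold from both sham and Pre changed direction wherever it could be valued. This is a weak check. For the 52 genes with 1 probe the median over probes changes nothing, and the setting with 2 or more probes drops them. Leaving out the centring shifts every gene by the same amount. Several settings could therefore hardly turn the direction of any of the 72. With zeros kept as measured values 7 no longer met both conditions (Alpk2, Eno3, Mlf1, Myl12b, Pdp1, Tcap and Ube2l3), Pfkm and Pdp1 no longer did with each array averaged over its own probes, and Pfkm also with the median over probes. Without losing its call, Ppp1r27 went from 3.44 to 1.28 with zeros kept, the gene Tmem233 from -1.58 to -2.48 over each array's own probes and Ankrd1 from 3.02 to 4.10 by the median over probes. Scaling both arrays to a common spread gave 72 genes above both references, all 42 of the main count among them. With 2 or more probes required, 975 genes were left, and the counts were 17 higher and 15 lower than sham, and 9 and 11 from both references. The share called from sham was lower too, 3.28% against 5.96%, and the cause was not tested. On those genes the list medians were 0.054 for Hsp70 and partners (0.43 in the main setting) and 0.68 for Hsp90 and partners (0.12). The sign turned for polyamine and amino acid stress genes (-0.42, from 0.11) and solute carriers (-0.29, from 0.11). With values required on all 6 arrays it turned for polyamine and amino acid stress genes (-0.12) and myogenic and regeneration genes (-0.087, from 0.20). For these list values the cause was not tested. Other changes of sign were in lists whose median was under 0.1 in size to begin with, and no other list median moved by more than the median probe SD of 0.35. With 1 array per group no array could be left out. No paired analysis was possible because each group has 1 array. Signal over background is unknown, which limits how far low spots can be trusted.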
